A study of Mus musculus with 8 samples.

Results

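Liver is a main site of cholesterol synthesis in the body. Genes for making and sensing cholesterol were compared in livers with a permanently active form of the kinase IKK2 and in control livers. The set was given as 27 gene symbols: the transcription factor SREBP2 with its sensing partners, the enzymes from acetyl units to cholesterol, and genes that transfer or esterify it. A gene was taken where a probe set was annotated to its symbol alone, through the brightest such probe set over all arrays, which gave 24 of the 27 and 24 of 19938 genes tested. Acat2, Soat1 and Soat2 were not analysed here. In transgenic livers 5 of the 24 fell and 0 rose by limma's test. Its Benjamini-Hochberg adjustment covered the 21789 probe sets annotated to 1 symbol. With all deposited probe sets in the adjustment, 0 members were called. Of all genes tested, 6.34% were called: 1.67% fell (333 genes) and 4.67% rose (932 genes). That split depends on the scaling, with 638 lower and 1066 higher after quantile normalization and 97 lower and 618 higher with each array centred on its median. The 5 members were Scap, Insig1 and Insig2, which control SREBP2, and the enzymes Pmvk and Tm7sf2.

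The study holds 8 livers, each with its own Affymetrix array. In 4 mice a transgene for constitutively active IKK2 stands behind the LAP promoter, which is active in hepatocytes, so the other cells of the organ are not its intended target although their RNA is read as well. The 4 control mice are called wild type in the labels. All were 4 weeks old and shared a mixed C57BL/6 and NMRI origin with at least 4 rounds of backcrossing to C57BL/6; the sources used here give neither sex nor founder line. Values are log2 expression per probe set, and a log2 fold change is transgenic minus control.

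When membranes of the endoplasmic reticulum are low in sterol, the escort protein SCAP carries SREBP2 to the Golgi, where proteases release its active part, which then switches on the genes of cholesterol synthesis and uptake. When sterol is plentiful, INSIG proteins hold SCAP back. The enzymes work in a chain, first through mevalonate to isoprenoid units, then to squalene and lanosterol, and last through a series of sterol intermediates to cholesterol.

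The gene of the kinase checks the groups: Ikbkb averaged 8.71 ± 0.39 in transgenic and 7.71 ± 0.19 in control livers (SD, n = 4 each), a log2 fold change of 1.00 (SE 0.18, limma adjusted p = 0.0185). Groups did not overlap, but the call ended without transgenic replicate 1 or without any 1 of the controls (adjusted p 0.00964 to 0.0729 over all settings). Of 9 measured hepatocyte markers 0 passed limma's test, and their median log2 fold change was -0.19. At an unadjusted p under 0.05, 3 of the 9 were lower, where 18.3% of all genes passed as lower and 33.6% in either direction. The mean reading of these markers spanned 12.25 to 12.60 in transgenic livers, lowest in replicate 2, and 12.56 to 12.63 in controls. Macrophage markers were higher: 10 of 12 rose, with a median of 1.72, and their mean reading spanned 8.70 to 10.06 in transgenic livers, highest in replicate 2, against 7.13 to 7.47 in controls. Of these 12, 2 read below every array median in all controls, and 0 of the 9 hepatocyte markers did. In whole liver, fewer hepatocytes and less RNA per hepatocyte cannot be told apart, and the part of the added macrophage RNA in the differences below was not tested.

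Among the sensing genes the partners of SREBP2 fell while its own transcript had a fold change near 0. Scap, the escort, read 8.33, 8.05, 8.69 and 8.77 in transgenic replicates 1 to 4, against 9.52, 9.10, 9.17 and 9.29 in controls. Every transgenic liver lay below every control. This is a log2 fold change of -0.81, or 0.570-fold, with an SE of 0.16 (adjusted p = 0.0276). Insig1, which retains SCAP and is itself switched on by SREBP2, read 10.70, 10.42, 11.105 and 10.65 in transgenic livers and 11.72, 11.32, 11.59 and 11.111 in controls. Transgenic replicate 3 and control replicate 4 came within 0.0059 of each other, and the other readings stood further apart. Insig1 had a log2 fold change of -0.72 with an SE of 0.17 (adjusted p = 0.0417). Insig2, the related retention protein, which in liver has a form that insulin lowers, read 10.75, 11.07, 10.79 and 11.01 in transgenic and 11.42, 11.74, 11.21 and 11.57 in control livers. These groups did not overlap either, and Insig2 fell by 0.58 (SE 0.13, adjusted p = 0.0367).

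Srebf2, the gene of SREBP2 itself, read 8.27, 8.16, 8.58 and 8.30 in transgenic livers and 8.55, 8.11, 8.50 and 8.40 in controls. The groups overlapped over nearly their whole range, with a log2 fold change of -0.06 and a 95% interval of -0.34 to 0.22. The distance between genes within each liver is given for 5 pairs as a description without p-values, since the pairs were chosen after the values had been seen. Scap minus Srebf2 was lower by 0.75 in transgenic livers (difference between the groups -0.75, SE 0.14), and Insig1 minus Srebf2 gave -0.65 (SE 0.13); neither pair overlapped between the groups. Insig2 minus Srebf2 gave -0.51 (SE 0.25) and Insig1 minus Insig2 -0.14 (SE 0.31), and both of these overlapped. An exact permutation test was computed for each pair, but its p-values are left out for the reason given above. No conclusion is drawn on whether these genes changed by different amounts.

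**Figure D1:**
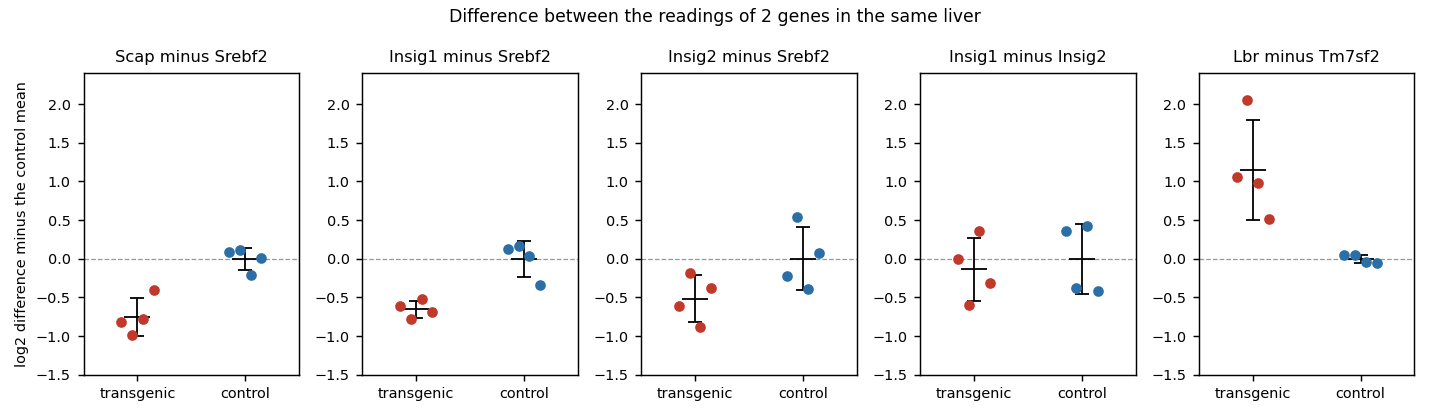
Difference between the log2 readings of 2 genes in the same liver, set to 0 at the control mean, for 5 pairs (points are livers, bars are mean and SD, n = 4 each). Scap against Srebf2 ran from -0.99 to -0.41 in transgenic and from -0.21 to 0.11 in control livers, and Lbr against Tm7sf2 from 0.52 to 2.05 in transgenic and from -0.05 to 0.04 in control livers.

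The promoters of the pathway are where SREBP2 binds, so windows of 300 bases, 250 before and 50 after a RefSeq transcript start (GRCm38.p6), were read for the members; 20 of the 24 have 1 or more, 26 windows in all. Fdps, Fdft1, Sqle and Stard4 are the others. The letters searched, on both strands, were CACNCCAC (the core of the sterol regulatory element), the E-box CACGTG and the CCAAT box, plus the kappa B consensus. The sterol core was found in 2 of the 26 windows, those of Insig1 and Hmgcs1, and in 6.24% of all 32851 windows. The E-box stood in 6 windows of the members and 7.15% of all, the CCAAT box in 19 and 37.4%, and the kappa B consensus in 3 (Ebp, Insig2 and Mvk) and 4.51%. A match is a description of letters, not a binding site, and a window without one says nothing about the factor. Windows are printed 5′ to 3′ along the gene for Insig1 and Scap, 2 of the sensing genes that fell, and for Hmgcs1, which holds the sterol core and was not called. Capitals mark every match, and 0 matches overlap in the printed windows. Insig1 lies on the plus strand at chr5:28071162-28071461, Scap (the first of its 2 starts) on the plus strand at chr9:110333038-110333337, and Hmgcs1 on the plus strand at chr13:119690101-119690400.
Insig1: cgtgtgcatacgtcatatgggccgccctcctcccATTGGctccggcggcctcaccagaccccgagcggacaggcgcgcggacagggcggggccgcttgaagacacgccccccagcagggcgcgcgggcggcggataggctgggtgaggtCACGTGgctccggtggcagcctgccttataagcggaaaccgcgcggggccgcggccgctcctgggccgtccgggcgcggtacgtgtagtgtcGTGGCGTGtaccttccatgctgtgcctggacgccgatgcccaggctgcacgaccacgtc
Scap: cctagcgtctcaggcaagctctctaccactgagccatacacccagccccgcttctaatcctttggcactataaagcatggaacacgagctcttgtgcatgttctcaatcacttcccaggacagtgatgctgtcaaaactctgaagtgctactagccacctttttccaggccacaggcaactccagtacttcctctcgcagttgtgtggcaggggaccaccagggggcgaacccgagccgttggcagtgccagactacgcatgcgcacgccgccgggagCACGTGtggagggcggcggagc
Hmgcs1: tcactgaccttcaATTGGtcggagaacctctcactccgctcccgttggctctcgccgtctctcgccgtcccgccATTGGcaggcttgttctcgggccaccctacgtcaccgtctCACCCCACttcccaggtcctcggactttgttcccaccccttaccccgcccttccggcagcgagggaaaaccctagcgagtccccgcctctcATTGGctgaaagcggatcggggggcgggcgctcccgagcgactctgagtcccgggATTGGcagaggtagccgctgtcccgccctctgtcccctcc

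In the Insig1 window a CCAAT box on the opposite strand begins 216 bases before the start, an E-box 101 bases before it and the sterol core, also on the opposite strand, 9 bases before it. The Scap window holds an E-box 29 bases after the start. In the Hmgcs1 window the sterol core begins 136 bases before the start, among 4 CCAAT boxes on the opposite strand.

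The mevalonate and isoprenoid steps gave 1 call among 7 genes, in Pmvk, which adds the second phosphate to mevalonate. Pmvk read 7.79, 7.77, 8.42 and 8.16 in transgenic livers, against 8.90, 9.03, 9.02 and 8.49 in controls. The highest transgenic reading stayed below the lowest control one. Its log2 fold change of -0.83 (0.564-fold, SE 0.17, adjusted p = 0.0301) was the most negative of the 24. Hmgcs1, the synthase that opens the pathway with HMG-CoA, read 11.88, 11.44, 12.00 and 11.54 in transgenic and 12.11, 11.52, 12.03 and 11.89 in control livers, which overlapped. The difference was -0.17 with an interval of -0.53 to 0.19 (adjusted p = 0.452). Mvk, the first mevalonate kinase, stood at -0.44 (adjusted p = 0.117) and Mvd, the decarboxylase that follows Pmvk, at -0.40 (adjusted p = 0.221). Mvd was the most scattered of the 24 in controls, at 8.33, 7.67, 8.53 and 7.45, around transgenic readings of 7.72, 7.49, 7.75 and 7.41.

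Idi1 interconverts the isoprenoid units, Fdps joins them into farnesyl diphosphate, the branch point towards sterols, and Ggps1 lengthens that product for protein prenylation. Fdps averaged 10.19 ± 0.30 in transgenic and 10.71 ± 0.16 in control livers (SD, n = 4 each). Its groups did not overlap, yet the log2 fold change of -0.53 missed the threshold (adjusted p = 0.0621). Idi1 stood at -0.35 (adjusted p = 0.170), and its other probe set read -0.36 (adjusted p = 0.140). Ggps1 was 1 of 3 members with a positive difference, 0.18 (interval -0.13 to 0.49, adjusted p = 0.369).

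From farnesyl diphosphate to lanosterol, 0 of 3 genes passed limma's test, and 2 had an unadjusted p under 0.05, as did 33.6% of all genes. Fdft1, the squalene synthase, read 11.08, 10.76, 11.32 and 10.96 in transgenic and 11.48, 11.19, 11.61 and 11.38 in control livers, a difference of -0.39 (adjusted p = 0.0914). The second Fdft1 probe set gave -0.51 (adjusted p = 0.0682). Lss, which closes squalene epoxide into lanosterol, averaged 8.63 ± 0.40 in transgenic and 9.27 ± 0.36 in control livers (SD, n = 4 each), a difference of -0.65 (adjusted p = 0.0901). Sqle, the epoxidase between them and a strong SREBP2 target, did not share the sign. It read 9.89, 9.51, 9.98 and 9.37 in transgenic livers and 9.87, 9.05, 9.97 and 9.57 in controls, and the spread inside each group exceeded the difference of 0.07 (interval -0.40 to 0.55, adjusted p = 0.810).

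Lanosterol becomes cholesterol through demethylations, reductions and a shift of a double bond. Of the 9 genes of these steps 1 fell and 8 did not pass. Tm7sf2, a sterol reductase, read 10.34, 10.06, 10.61 and 10.48 in transgenic livers and 10.88, 10.87, 10.92 and 10.71 in controls. The groups were apart, and Tm7sf2 fell by 0.47 (SE 0.12, adjusted p = 0.0499), just past the threshold. Lbr carries out the same reduction and is also a receptor of the inner nuclear membrane that anchors chromatin and lamins. Its readings stood the other way, at 8.43, 9.15, 8.63 and 8.04 in transgenic and 7.96, 7.95, 7.92 and 7.70 in control livers, without overlap. The log2 fold change of 0.68 (SE 0.20, interval 0.23 to 1.13) missed the threshold (adjusted p = 0.0657). Within each liver, Lbr minus Tm7sf2 differed by 1.15 between the groups (SE 0.32), again a description without a p-value, since the pair was chosen for its opposite signs. Transgenic replicate 2 was highest for Lbr and lowest for Tm7sf2, and it also had the highest macrophage and the lowest hepatocyte marker readings; their part in this difference was not tested. The windows of both reductase genes are shown because their fold changes had opposite signs, with the same capitals, on the minus strand at chr19:6067801-6068100 for Tm7sf2 and at chr1:181842352-181842651 for Lbr.
Tm7sf2: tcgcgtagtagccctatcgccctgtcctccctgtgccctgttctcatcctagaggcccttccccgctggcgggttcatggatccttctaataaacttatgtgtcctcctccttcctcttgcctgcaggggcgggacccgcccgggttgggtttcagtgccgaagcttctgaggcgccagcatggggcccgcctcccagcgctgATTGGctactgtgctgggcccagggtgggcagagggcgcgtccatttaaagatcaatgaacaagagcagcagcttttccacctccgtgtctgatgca
Lbr: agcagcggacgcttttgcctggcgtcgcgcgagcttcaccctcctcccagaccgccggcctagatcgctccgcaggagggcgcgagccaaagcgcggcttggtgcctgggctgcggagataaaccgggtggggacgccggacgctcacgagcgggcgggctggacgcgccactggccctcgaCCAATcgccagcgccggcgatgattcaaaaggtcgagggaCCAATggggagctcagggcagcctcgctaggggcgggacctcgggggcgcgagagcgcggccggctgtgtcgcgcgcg

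The Tm7sf2 window has 1 CCAAT box, on the opposite strand 47 bases before the start, and the Lbr window has 1 beginning 68 and another 28 bases before it. Neither holds the sterol core.

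Ebp, the isomerase that shifts the double bond, read 9.90, 9.54, 10.45 and 10.51 in transgenic and 10.77, 10.82, 10.79 and 10.88 in control livers. The controls were tight (SD 0.046) and the transgenic livers scattered (SD 0.46), with every one below the controls. Its difference of -0.71 missed the threshold (adjusted p = 0.0566). Sc5d, the desaturase of the next step, also had groups that did not overlap, at -0.44 (adjusted p = 0.0799). Hsd17b7, a ketoreductase of the demethylation complex, stood at -0.58 (adjusted p = 0.111) and its partner Nsdhl at -0.40 (adjusted p = 0.146). The first demethylase, Cyp51, had a difference of -0.33 (adjusted p = 0.207). Msmo1, the methyl oxidase, and Dhcr7, which makes cholesterol from its last precursor, lay nearest to 0 among the lower ones of this stretch, at -0.16 (interval -0.45 to 0.12) and -0.15 (interval -0.52 to 0.23). Stard4, a carrier of cholesterol between membranes, averaged 8.96 ± 0.30 in transgenic and 9.34 ± 0.24 in control livers (SD, n = 4 each), a difference of -0.38 (adjusted p = 0.142).

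**Figure D2:**
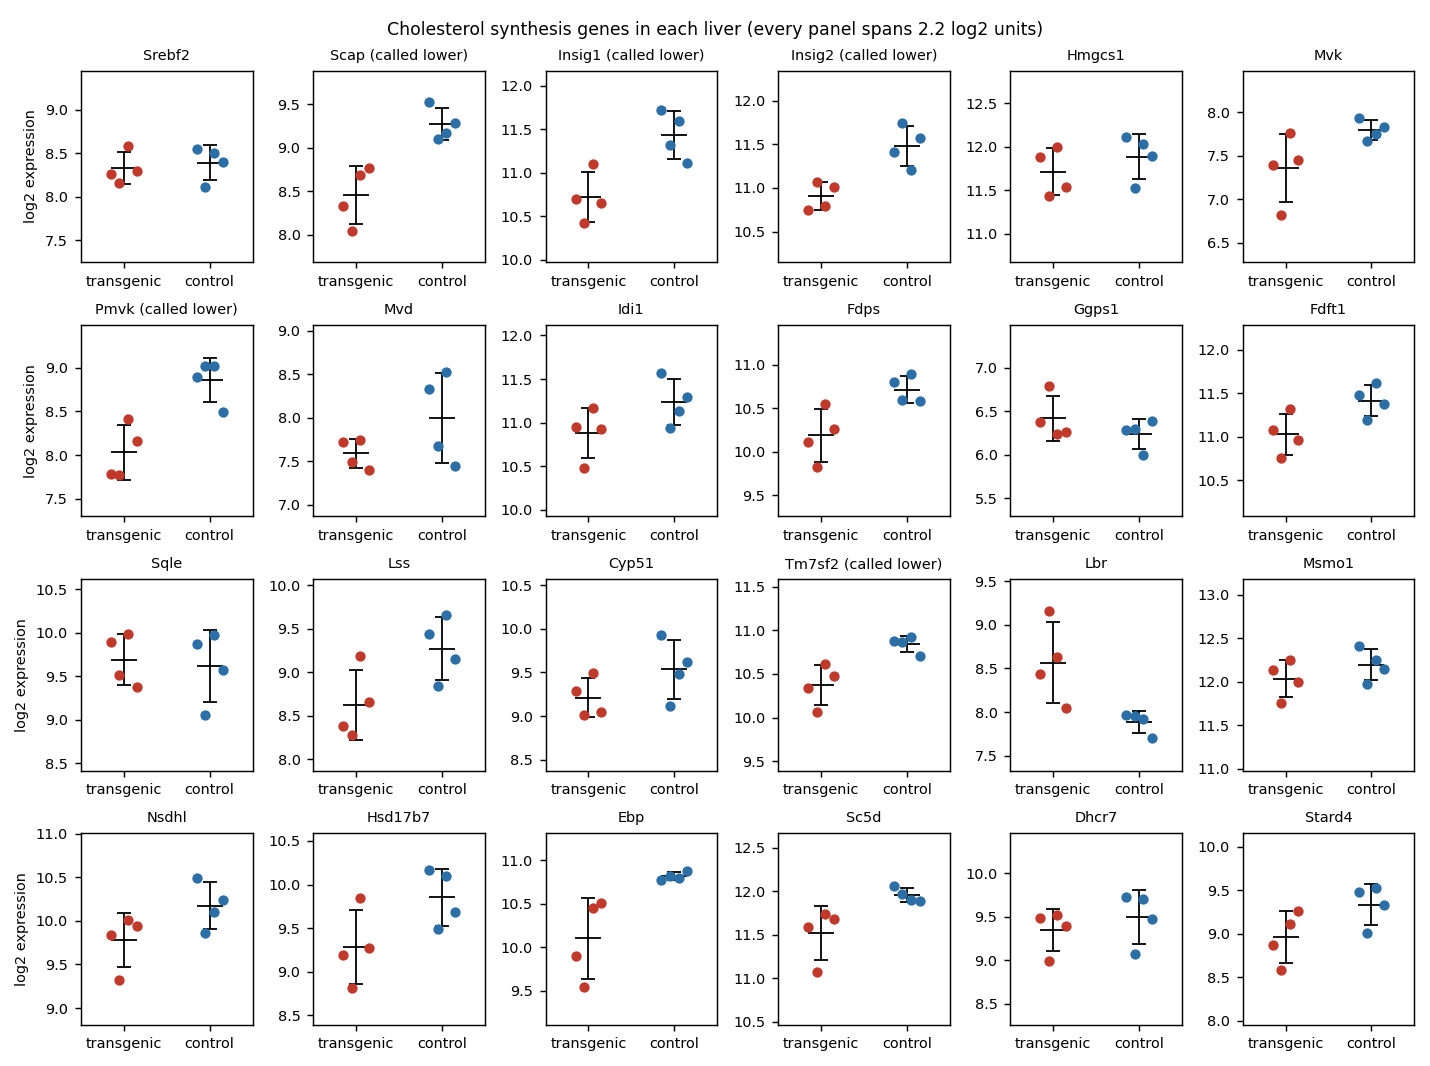
Log2 expression of the 24 genes in each liver (points), with mean and SD per group (n = 4), transgenic on the left of each panel; panels differ in level but share the same span. Groups are apart for Scap, Insig1, Insig2, Pmvk, Fdps, Tm7sf2, Ebp and Sc5d (transgenic lower) and for Lbr (transgenic higher).

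**Figure D3:**
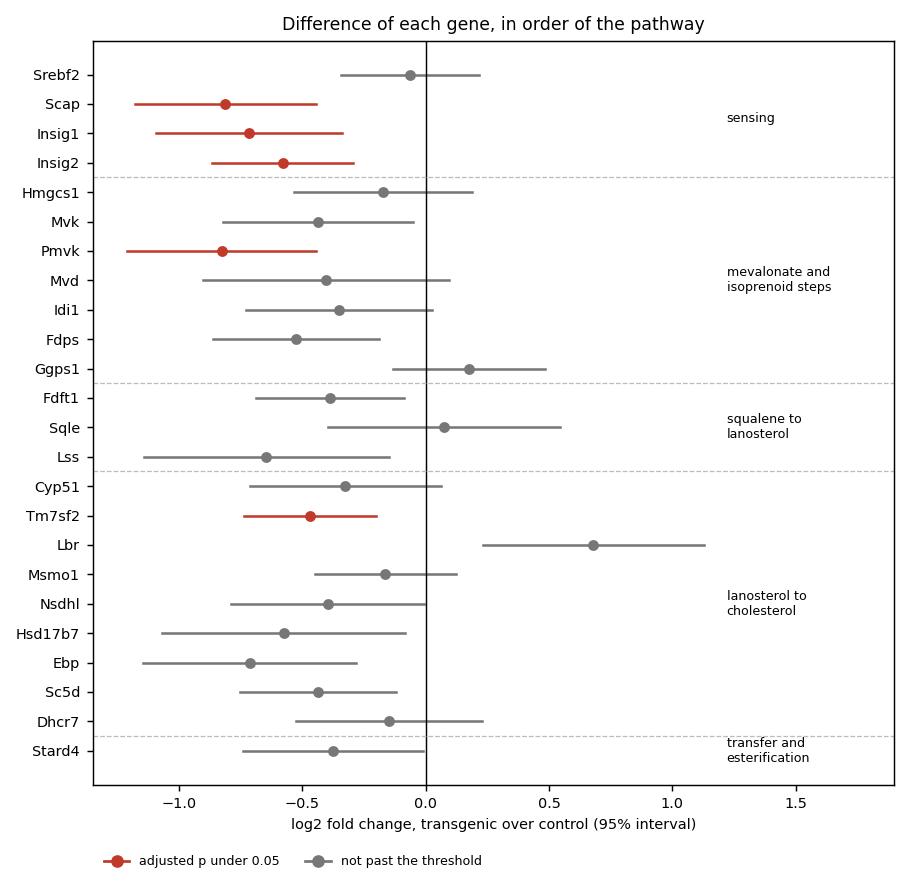
Log2 fold change, transgenic over control, with limma's 95% interval for the 24 genes from sensing (top) to transfer (bottom). The 5 called genes are red and lie between -0.83 and -0.47. Lbr lies furthest to the right at 0.68, and Ggps1 (0.18) and Sqle (0.07) are also above 0.

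Taken over the whole set, 21 of 24 log2 fold changes were negative, with a median of -0.40. Over all genes tested the median was -0.07 and 61.6% were negative. The groups did not overlap for 8 members with transgenic livers lower and for 1 with transgenic livers higher; over all genes 22.4% did not overlap, 11.2% in each direction. At an unadjusted p under 0.05, 14 members were lower, and 1, Lbr, was higher, where 33.6% of all genes passed and 18.3% passed as lower. With quantile normalization 22 members were negative, and with centred arrays 20, where Srebf2 turned to 0.016. Members share regulators and livers, so these counts are not independent of each other.

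The 5 calls depend on which livers are kept. Without transgenic replicate 1, or without control replicate 1 or control replicate 2, limma called 0 members, with 10, 10 and 16 lower at an unadjusted p under 0.05. Calls over all genes moved too: 333 were lower with all arrays, and 3, 13 and 10 in these settings. Without control replicate 3 only Insig2 and without control replicate 4 only Pmvk was called, where 35 and 32 of all genes were called lower. Leaving out transgenic replicate 2 gave 3 lower, Scap, Insig2 and Pmvk, where 260 of all genes were lower. Leaving out transgenic replicate 3 gave 10, and leaving out transgenic replicate 4 gave 6 lower together with Lbr as higher (adjusted p = 0.0182). Over all genes, those settings gave 675 and 944 lower, and 1359 and 1636 higher. The fold changes moved less: that of Scap ran from -0.92 to -0.67 over the 19 alternative settings, and that of Pmvk from -0.96 to -0.65.

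Among transgenic livers 2 arrays held an extreme rank for most genes, and controls were more mixed. Transgenic replicate 2 was the lowest of its group for 19 of 24 genes and transgenic replicate 3 the highest for 18. Among controls, replicate 2 was lowest for 14 and replicate 4 for 7, and replicate 1 was highest for 13 and replicate 3 for 7. Averaged over the 24 genes, transgenic replicates 1 to 4 stood at -0.37, -0.61, -0.10 and -0.35 relative to the control mean, and controls at 0.17, -0.19, 0.09 and -0.07. Transgenic replicate 3 was thus nearer to the control mean than control replicate 2 was, and over the set as a whole the groups overlapped. With both arrays numbered 2 left out, an alternative chosen after seeing these readings, Scap and Insig2 were the 2 genes called and the median was -0.36.

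**Figure D4:**
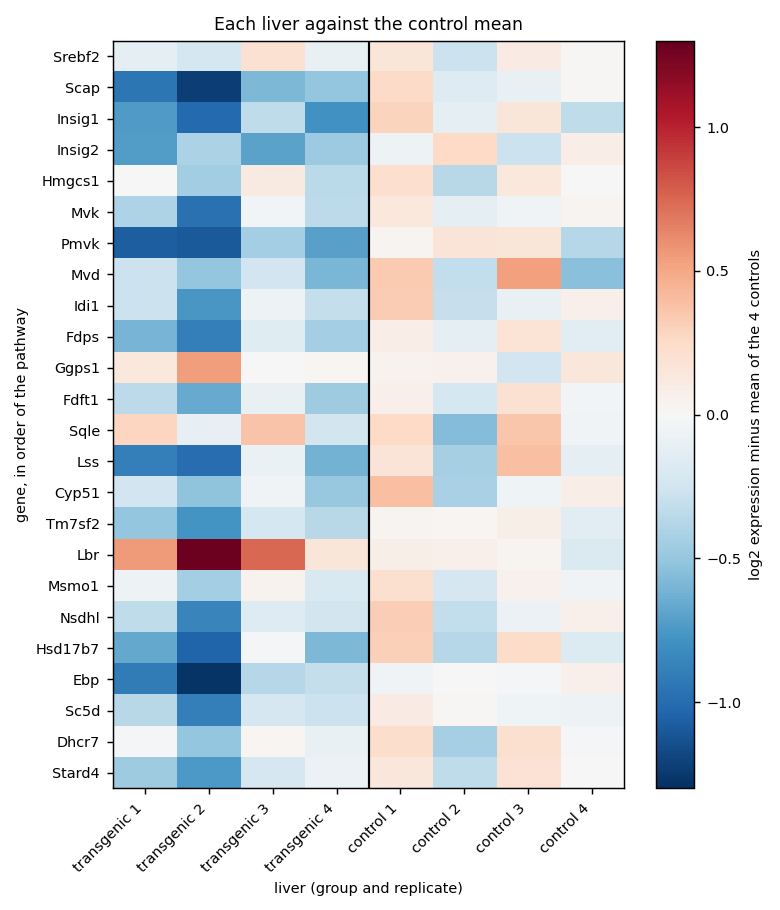
Log2 expression of each gene (rows, in order of the pathway) in each liver (columns, transgenic left of the line) minus the mean of the 4 controls, red above and blue below it. Transgenic replicate 2 is the bluest column, at a mean of -0.61, and transgenic replicate 3 (-0.10) is paler than control replicate 2 (-0.19). Lbr is above 0 in every transgenic liver (0.16 to 1.27), and single transgenic livers reach 0.55 for Ggps1 and 0.37 for Sqle.

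Genes around the pathway were read from 5 lists, chosen with earlier results of these data known. For the remaining genes of synthesis and of SREBP control 8 of 16 were measured and 0 passed limma's test. Of the 8, 3 had an unadjusted p under 0.05, against 33.6% of all genes. Rnf145, a sterol-responsive ubiquitin ligase of the endoplasmic reticulum, had the smallest p, at 0.61 (adjusted p = 0.0538). Genes of sterol uptake and export had a median of 0.12 over 14 genes, of which 1 rose and 1 fell. By limma 8 of the 14 had an unadjusted p under 0.05, 3 of them lower, where 33.6% of all genes passed and 18.3% passed as lower. Groups did not overlap for 5 with transgenic livers higher and for 2 with transgenic livers lower, against 11.2% of all genes in each direction. Mylip, the ligase that marks lipoprotein receptors for breakdown and is induced by oxysterols, rose by 0.51 (SE 0.10, adjusted p = 0.0250). Abcg5, a half-transporter that sends sterols into bile, fell by 0.72 (SE 0.16, adjusted p = 0.0370). Transgenic livers read 8.34, 8.71, 8.87 and 8.97 for Abcg5, against 9.65, 9.56, 9.09 and 9.48 in controls, which did not overlap.

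Oxidation of sterols to bile acids and oxysterols gave 0 calls by limma among 9 genes and a median of -0.32. At an unadjusted p under 0.05 there were 3, where 33.6% of all genes passed. Hsd3b7, an early enzyme of bile acid synthesis, had the smallest p, at -0.94 (adjusted p = 0.0568). Transgenic replicate 2 read 8.82 for it, the other transgenic livers 9.82 to 10.14 and the controls 10.39 to 10.76. Among 11 genes that use mevalonate for ubiquinone, dolichol and prenylated proteins the median was -0.04, and 3 had an unadjusted p under 0.05 by limma. Pggt1b, a subunit of a geranylgeranyl transferase, rose by 0.60 (adjusted p = 0.0455), and Rabggta, a subunit of the enzyme that prenylates Rab proteins, fell by 0.58 (adjusted p = 0.0364).

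Fatty acid synthesis is driven by SREBP1, the relative of SREBP2 that also depends on SCAP. In this list 2 of 16 fell, 0 rose, and 15 of 16 differences were negative with a median of -0.40. Over all genes tested 1.67% fell and 61.6% were negative. By limma 6 of the 16 were lower at an unadjusted p under 0.05, where 18.3% of all genes were. Me1, the malic enzyme that supplies NADPH, read 10.02, 9.04, 9.96 and 10.42 in transgenic and 11.25, 11.025, 11.05 and 10.64 in control livers. It fell by 1.13 (0.458-fold, SE 0.26, adjusted p = 0.0393). Elovl5, an elongase of polyunsaturated fatty acids, fell by 0.53 (SE 0.13, adjusted p = 0.0465). The calls of Mylip, Rabggta and Me1 ended without transgenic replicate 1 or any 1 control, that of Abcg5 without transgenic replicate 1 or control replicate 1, 2 or 4, that of Pggt1b without transgenic replicate 1 or 2 or any 1 control, and that of Elovl5 without any 1 liver other than transgenic replicate 4. Centring the arrays also ended the calls of Abcg5, Pggt1b, Elovl5 and Me1 (adjusted p 0.0579, 0.0629, 0.0720 and 0.0516), and with all deposited probe sets in the adjustment those of Abcg5, Pggt1b, Rabggta, Elovl5 and Me1 ended (0.0641, 0.0758, 0.0618, 0.0765 and 0.0687). The replicate block ended the same 5, at 0.0680, 0.0783, 0.0565, 0.0824 and 0.0594. Limma's treat method ended all 6, Mylip included, and array weights ended that of Pggt1b (0.0668). Without both arrays numbered 2 the calls of all but Me1 ended. Srebf1 itself stood at -0.24 with an interval of -0.68 to 0.19. The medians of the cholesterol and the fatty acid lists were thus equal to 2 decimals, and whether the lists differ was not tested.

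**Figure D5:**
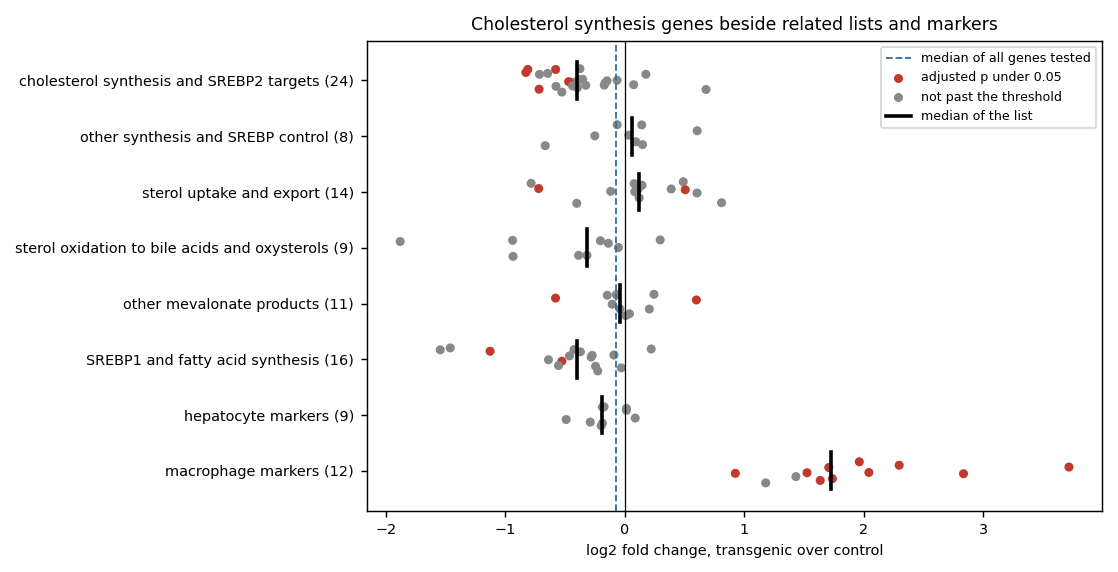
Log2 fold change, transgenic over control, of single genes (points, red where called) by list, with the list's median (black bar) and the median of all genes (dashed, -0.07). The cholesterol and fatty acid lists share a median of -0.40, uptake and export stands at 0.12, hepatocyte markers at -0.19 and macrophage markers at 1.72.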

How the data were processed

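Liver RNA of 8 mice was hybridised to Affymetrix whole-transcript arrays. The deposited values are log2 expression per probe set, and the submitters' processing notes name Expression Console, by Affymetrix, as the software; its version and normalization settings are not given in the sources consulted. No further scaling was applied (array medians 4.88 to 5.08). The number of arrays limits the precision. Of 35556 probe sets, 21789 have 1 gene symbol, 1621 several and 12146 none; the first kind entered the fit, and 19938 genes were counted through their brightest probe set. Limma 3.58.1 in R 4.3.3 fitted the group as the only term with empirical Bayes moderation, two-sided, adjusted over 21789 probe sets, called under 0.05. The steps were tested on simulated data with independent noise for each probe set. The planted changes were larger than those of the called members, so recovery of changes of that size was not tested. Per the labels, arrays of 1 group are biological replicates. Named are all measured members, Ikbkb, and of each other list the called genes or that with the smallest p; Srebf1 was added after its value was seen. Marker lists for 9 cell types were read, of which the hepatocyte and macrophage lists stand in the text. Of the others, T and NK cell genes had a median of 0.57 (2 of 8 rose), stellate and fibroblast genes 0.52 (3 of 8 rose), endothelial 0.30 (1 of 8 rose), neutrophil 0.11 (0 of 9 by limma, 2 at an unadjusted p under 0.05), B cell -0.05 (1 of 5 rose), bile duct -0.16 (0 of 5 by limma, 1 unadjusted) and erythroid -0.29 (1 of 4 fell). Over all genes 33.6% had an unadjusted p under 0.05. In all controls, 7 of the 9 neutrophil and 4 of the 8 T and NK cell markers read below every array median. So did 2 of the 5 B cell and 1 of the 4 erythroid markers. Members and lists were chosen with earlier results of these data known. Same-numbered livers were not treated as pairs: the correlations of their deviations from the group means were 0.24, -0.03, 0.26 and -0.13.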

Additional observations from a re-analysis of the deposited data

Results flagged for a closer look

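The lowest control reading of Lbr, 7.70 in replicate 4, lay under the remaining 3 controls at 7.92 to 7.96, a gap larger than chance usually gives for 4 samples. Of 66 groups of 4 readings looked at this way 1 stood out, and about 1 in 20 would by chance. Without that liver the log2 fold change of Lbr was 0.62 (adjusted p = 0.115).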

How the results depend on the processing

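Members called lower, 5 as reported, numbered 4 after quantile normalization, 2 with arrays centred on their medians, 0 with all deposited probe sets in the adjustment and 0 when limma tested for more than a 1.2-fold change, its treat method (12 and 5 at an unadjusted p under 0.05), 2 with both arrays numbered 2 left out, and 0 to 10 with 1 array left out at a time. Members called higher numbered 0 to 1 with 1 array left out. Over all genes, 932 were higher as reported, 618 centred, 425 with all probe sets, 271 under treat and 192 to 1636 with 1 array left out. Quantile normalization gave 1066 higher. The 333 lower became 638 after it, 97 centred, 54 with all probe sets, 501 with array weights, 174 with the replicate block, 8 under treat, 113 without both arrays numbered 2 and 3 to 944 with 1 left out. The replicate block kept Scap, Insig1, Insig2 and Pmvk, lost Tm7sf2 and added Lss (5 lower); 2 of the 4 transgenic livers correlated best with the control of their own number. Centring moved the median of all genes to 0.0057 and that of the members to -0.32. Signs turned for Srebf2 when centred (0.016) and for Sqle after quantile normalization (-0.00025), with array weights (-0.014), without both arrays numbered 2 (-0.054), without transgenic replicate 3 (-0.023) and without control replicate 2 (-0.11), within a range of -0.11 to 0.19 with 1 array left out; the other 22 members kept theirs in all 19 settings. Tm7sf2 was called in 7 of these settings, Insig1 in 9, and Scap, Insig2 and Pmvk in 12 each. The cause of these moves was not tested. Without scanner files, signal could not be set against background here.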
